A study of Mus musculus with 2 samples.

Results

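Genes of the primary cilium were followed in mouse embryonic stem cells (ESCs) labelled as overexpressing HDAC6, set against wild-type (WT) ESCs. The members were named genes of intraflagellar transport (IFT), of the Bardet-Biedl syndrome (BBS) proteins and of the transition zone, together with motors, GTPases and centriolar genes. They were found on the arrays by the RefSeq accession of each probe. All 38 genes were present, with 52 probes among 55681 probes other than controls, and all 38 passed the signal filter that left 16062 genes for testing. The cells of both groups were of strain B6C3F1, were at passage 26 and grew with LIF on a feeder layer of mouse embryonic fibroblasts whose division mitomycin C had stopped. Total RNA of WT cells carried Cy3 and that of the cells labelled HDAC6 overexpression carried Cy5 on each of 2 Agilent arrays, with no dye swap. A dye effect on a probe would repeat on both arrays and cannot be told apart from a difference between the cells. The labels give no vector, promoter or clone for the overexpression, and they call the arrays biological replicates. Both deposited files carry a single number for each kind of RNA, so separate cultures are not established and the p-values may measure only a technical spread. Hdac6, the gene named by the label, was not higher in the Cy5 channel by the main test. It had normalized intensities of 25900 in the WT channel and 28700 in the Cy5 channel in replicate 1, and of 27200 and 26200 in replicate 2. Its log2 ratio was 0.046 ± 0.14 (SD, n = 2; limma adjusted p = 0.70), which goes against the label. Whether its probes cover the introduced sequence is not known. With median centring in place of the loess step the ratio was 0.52 with a call (adjusted p = 0.0010). The Cy5 channel is therefore named only by its label, as the OE-labelled channel.

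The primary cilium is a microtubule-based projection of the cell surface that serves as a sensor and carries Hedgehog signalling in vertebrates. IFT-B particles, moved by kinesin-II, carry cargo toward the tip, and IFT-A particles with dynein-2 return it. The BBSome is a coat that moves membrane proteins along the cilium, and the transition zone at its base acts as a gate. HDAC6 deacetylates tubulin, and in other cells it takes part in the disassembly of the cilium downstream of the kinase Aurora A.

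Of the 38 cilium genes, 17 were lower and 1 was higher in the cells labelled HDAC6 overexpression at an adjusted p under 0.05 (limma, Benjamini-Hochberg over all 16062 genes). These shares were 44.7% and 2.63%, beside 34.5% of all tested genes lower and 22.2% higher. With each chromosome's median subtracted, 10 members were lower (26.3%), beside 25.9% of all tested genes, and the median over the members went from -0.19 to -0.075. At an unadjusted p under 0.05, 6026 of the 16062 tested genes were lower and 3929 higher. The members gave 18 lower and 3 higher by that threshold, adding Ift88, Wdr35 and Arl3. The changes were small. The lowest was the kinesin-II motor gene Kif3a, at 1.80-fold lower, and the only gene that rose, the transition zone gene Nphp4, was 1.19-fold higher. Values are log2 ratios of the OE-labelled over the WT channel, opposite in sign to the table deposited for the series, and are given as the mean of 2 arrays ± SD (n = 2). The median of -0.19 (-0.16 in both replicates) stood beside -0.074 over all tested genes. On both arrays 27 members (71.1%) were below 0 and 6 (15.8%) above it, where the same held for 50.5% and 35.6% of all tested genes. The spread of the mean ratios was narrower among the members (SD 0.253) than over all genes (SD 0.549). Only 2 members, Kif3a and Mks1, reached 1.5-fold on each array, both lower, beside 10.7% of all tested genes lower and 6.05% higher by that rule. Tested with limma against a 1.2-fold change, 5 members were lower and 0 higher, beside 16.5% and 9.91% of all tested genes. In a bulk sample fewer cells of a type and less RNA per cell cannot be told apart.

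**Figure D1:**
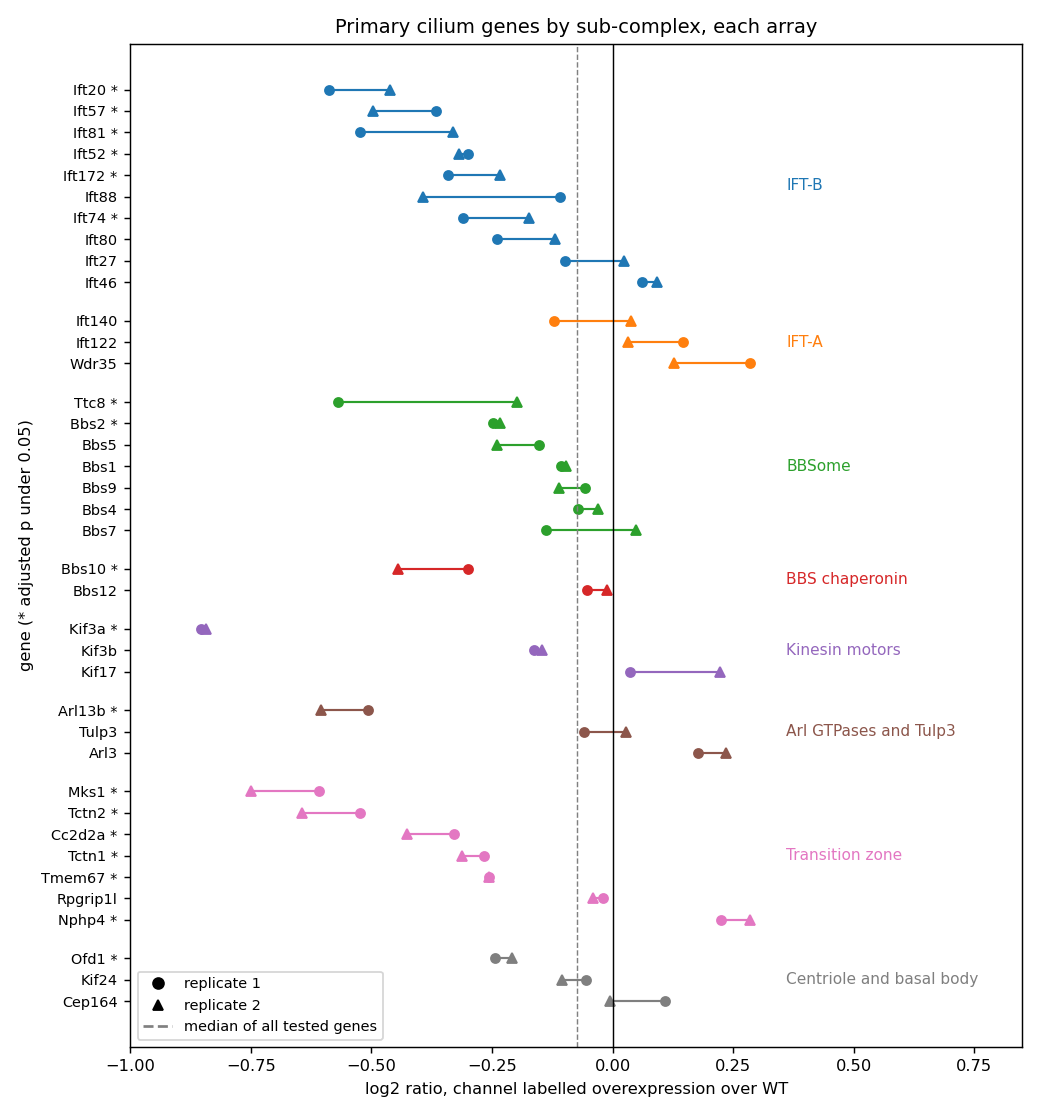
Log2 ratio of the OE-labelled over the WT channel for the 38 cilium genes, by sub-complex, with circles for replicate 1, triangles for replicate 2 and an asterisk where the adjusted p was under 0.05. IFT-B and transition zone genes lie mostly to the left of 0, Kif3a lies lowest at -0.85 in replicate 1 and -0.84 in replicate 2, and the dashed line marks the median of all tested genes at -0.074.

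Many cilium genes carry an X-box, the binding motif of the RFX transcription factors, near their start, and the rule that chose the members made no use of it. The letters GTNNCCNNNGNAAC, where N is any base, were searched on both strands of RefSeq promoter windows (GRCm38.p6, 250 bases before to 50 after the start). Of 34 members with a window, 8 held a match (23.5%), beside 2.96% of 12738 tested genes with a window. The same letters set 1 base closer (GTNNCCNNGNAAC) were found in 3 members (8.82%, beside 1.95%), and set 1 base wider (GTNNCCNNNNGNAAC) in 0 members, beside 1.04%. Of the 15 members with a window that were lower, 4 held the 14-base motif (26.7%), and of the other 19 also 4 (21.1%). A match is a description of the letters and does not show that a factor binds. The 6 sequences below are those of the 4 lower members, of Nphp4, which rose, and of Bbs7, which did not pass the test. The match is in capitals, and its position is that of its leftmost base relative to the annotated start. Those of Tctn2 and Ift57 fit the letters on the opposite strand, so their capitals show the reverse complement.
Mks1: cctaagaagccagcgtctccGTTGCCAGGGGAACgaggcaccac
Tctn2: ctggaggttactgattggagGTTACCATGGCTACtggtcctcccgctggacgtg
Ift57: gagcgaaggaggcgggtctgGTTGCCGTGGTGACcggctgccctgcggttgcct
Tctn1: GTTGCCCGGGCAAC
Nphp4: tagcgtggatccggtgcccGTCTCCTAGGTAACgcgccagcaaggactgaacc
Bbs7: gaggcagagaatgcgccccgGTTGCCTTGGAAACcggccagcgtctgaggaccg
All are written 5′ to 3′ on the gene's own strand. Mks1 (chr11:87853171-87853214, plus strand) had its match at -24 and Tctn2 (chr5:124598667-124598720, plus strand) at -62. Ift57 (chr16:49699187-49699240, plus strand) had it at -87, Nphp4 (chr4:152477892-152477944, plus strand) at -231 in 1 of its 3 windows, and Bbs7 (chr3:36613477-36613530, minus strand) at -121. That of Tctn1 (chr5:122264411-122264424, minus strand) lay at 36, inside the transcript, so the match alone is shown. The remaining matches were those of Bbs1 and Bbs4, at 1 and 23.

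The transition zone had the lowest median of the 8 sub-complexes (-0.29). Of its 7 members 5 were lower (71.4%) and 1 higher (14.3%), beside 34.5% and 22.2% of all tested genes. With chromosome medians subtracted, Tctn2, Cc2d2a and Tmem67 alone remained lower and Nphp4 higher, with a median of -0.22. In that setting 25.9% of all tested genes were lower and 26.7% higher. Mks1, a core member of the complex mutated in Meckel syndrome, had normalized intensities of 6970 in WT and 4580 in the OE-labelled channel in replicate 1 and of 7400 and 4400 in replicate 2. Its OE-labelled signal was thus below its WT signal on both arrays, with a log2 ratio of -0.68 ± 0.10 (limma adjusted p = 0.00016). Mks1 lies on chromosome 11, and subtracting that chromosome's median took it to -0.19 without a call (adjusted p = 0.12). Tctn2, a tectonic protein of the same complex, had 8670 and 6030 in replicate 1 and 9900 and 6330 in replicate 2, a ratio of -0.58 ± 0.086 (adjusted p = 0.00040). Its relative Tctn1 had -0.29 ± 0.033 (adjusted p = 0.018). Cc2d2a, which encodes a coiled-coil protein of the zone, had -0.38 ± 0.070 (adjusted p = 0.0051), and its other probe had -0.30. The membrane protein gene Tmem67 had -0.26 on both arrays (adjusted p = 0.030). Nphp4, of the nephrocystin module, went the other way, from 2390 in WT to 2790 in replicate 1 and from 2620 to 3190 in replicate 2. Its ratio was 0.26 ± 0.043 (adjusted p = 0.032), and its other probe had 0.29. This call was lost with median centring in place of the loess step, at 0.16 (adjusted p = 0.15). Rpgrip1l, which encodes a scaffold protein of the zone, did not pass, with -0.030 ± 0.015.

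In IFT-B, the particle of outward transport, 6 of 10 members were lower (60.0%) and 0 higher, with a median of -0.27. Of all tested genes 34.5% were lower and 22.2% higher. With chromosome medians subtracted, Ift52, Ift57 and Ift81 alone remained lower, and the IFT-B median was -0.21. In that setting 25.9% of all tested genes were lower. Ift20, the subunit also found at the Golgi, had intensities of 25600 in WT and 17000 in the OE-labelled channel in replicate 1 and of 27000 and 19600 in replicate 2. Its ratio was -0.53 ± 0.089 (limma adjusted p = 0.00079). Median centring took it to -0.15 without a call (adjusted p = 0.16), and subtracting the median of chromosome 11 took it to -0.033 (adjusted p = 0.78). Ift57 had -0.43 ± 0.091 and Ift81, which with Ift74 binds tubulin, -0.43 ± 0.14. Ift52 had -0.31 ± 0.013 and Ift172, the largest subunit, -0.29 ± 0.076. Ift74 itself had -0.24 ± 0.097 and turned to 0.011 with median centring. The adjusted p of these 5 genes ran from 0.0026 to 0.043. Ift88, whose mutation is a classic cause of lost cilia, had -0.11 in replicate 1 and -0.39 in replicate 2 and lay just outside the threshold (adjusted p = 0.052). Ift80 had -0.18 ± 0.086, Ift27 -0.037 ± 0.087 and Ift46 0.077 ± 0.022, none past the threshold. The probes of Ift46 differed in size, with 0.077 for the brighter and 0.48 for the dimmer probe.

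Of the 3 members of IFT-A, the particle of return transport, 0 passed the limma test, and at an unadjusted p under 0.05 only Wdr35 was higher. Ift122 had 0.15 and 0.032 in replicates 1 and 2, Wdr35 0.28 and 0.13, and Ift140 -0.12 and 0.038. The medians of IFT-A (0.089) and IFT-B (-0.27) thus lay on opposite sides of 0, a difference that was not tested. The second probe of Ift122 had -0.15, opposite in sign to the probe used. With the mean over probes the IFT-A median was the lowest of all settings, at -0.028.

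In the BBSome 2 of 7 members were lower (28.6%, beside 34.5% of all tested genes) and 0 higher, with a median of -0.10. Ttc8, the subunit also called BBS8, had -0.57 in replicate 1 and -0.20 in replicate 2, and its mean was -0.38 ± 0.26 (limma adjusted p = 0.011). Bbs2 had -0.24 ± 0.011 (adjusted p = 0.040) and lost its call with the Agilent processed signals (adjusted p = 0.070). Bbs1, Bbs4, Bbs5, Bbs7 and Bbs9 had means from -0.20 to -0.045 and did not pass. Of the chaperonin-like genes that help assemble the BBSome, Bbs10 fell by 0.37 on the log2 scale (adjusted p = 0.0061), and its other probe had -0.36. Bbs12 had -0.032 ± 0.031 and did not pass.

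Among the kinesins, Kif3a had 11700 in WT and 6460 in the OE-labelled channel in replicate 1 and 12000 and 6670 in replicate 2. Kif3a thus had the lowest ratio among the members, -0.85 ± 0.0070 (limma adjusted p = 3.4e-05). Its other probe gave -0.85 as well. Kif3b, the partner of Kif3a in the kinesin-II motor, did not pass, with -0.15 ± 0.010 (adjusted p = 0.16), and its other probe had 0.035. The Kif3b signal was low, at 476 in WT and 425 in the OE-labelled channel in replicate 1 and 541 and 488 in replicate 2. With the Agilent processed signals its ratio was -0.22 (limma adjusted p = 0.092). Whether the ratios of these partners differ was not tested. Kif17, the motor of outward transport in some cell types, had 0.13 ± 0.13 for its brighter probe and -0.22 for its dimmer probe.

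The small GTPase gene Arl13b, whose product marks the ciliary membrane, had 10100 in WT and 7080 in the OE-labelled channel in replicate 1 and 11000 and 7200 in replicate 2. Its ratio was -0.56 ± 0.069 (limma adjusted p = 0.00052), and its other probe had -0.23. Arl3, which releases lipid-modified cargo in the cilium and is activated by Arl13b, had 0.21 ± 0.042 and did not pass (adjusted p = 0.070). It was higher with a call under median centring (0.40, adjusted p = 0.0027) and after subtracting its chromosome's median (0.24, adjusted p = 0.046). Tulp3, an adaptor between IFT-A and membrane receptors, had -0.016 ± 0.060. Of the centriolar genes, Ofd1 had -0.23 ± 0.025 and lay just under the threshold (adjusted p = 0.050), so it counts among the 17 lower members. It was called in 4 of 11 settings, and subtracting its chromosome's median took it to -0.11 (adjusted p = 0.30). The distal appendage gene Cep164 (0.051 ± 0.081) and the centriolar kinesin gene Kif24 (-0.080 ± 0.035) did not pass. The other probes of Cep164 had -0.028 and -0.16.

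Position on the chromosomes went along with some of these ratios. Chromosome 11 had a median log2 ratio of -0.48 over 1340 tested genes, with 69.0% of them lower. The 3 members there, Kif3a, Mks1 and Ift20, were all lower, and all lay below that median. They are also the lowest, the second and the fifth lowest of the members. With each chromosome's median subtracted on each array, Kif3a remained lower at -0.36 (adjusted p = 0.0082). Mks1 and Ift20 were no longer called. The 35 members on other chromosomes had a median of -0.15, with 14 lower (40.0%) and 1 higher (2.86%). The 14722 tested genes there had a median of -0.050, with 31.3% lower and 23.3% higher.

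**Figure D2:**
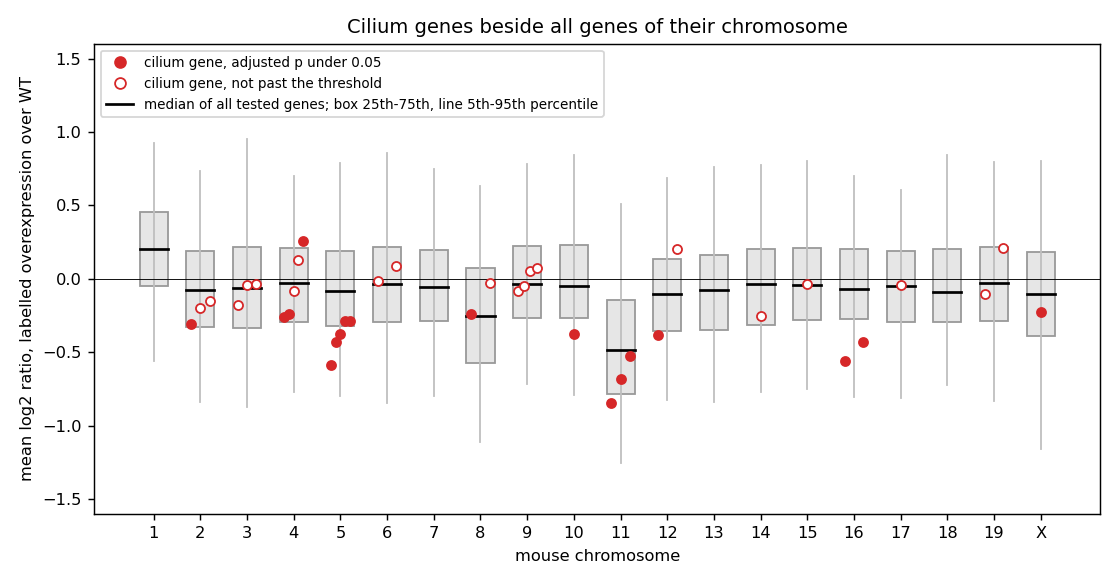
Mean log2 ratio of each cilium gene (red, filled where the adjusted p was under 0.05) beside all tested genes of its chromosome, shown as median, quartile box and 5th to 95th percentile line. The 3 members on chromosome 11 lie below a chromosome median of -0.48, and the 5 on chromosome 5 lie below one of -0.081.

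Chromosome 5 showed another pattern, since its median was -0.081 and 34.1% of its genes were lower, and yet all 5 members on it were lower. These were Tctn2, Ift81, Cc2d2a, Tctn1 and Ift172, with means from -0.58 to -0.29. After subtraction Tctn2 (-0.51), Ift81 (-0.35) and Cc2d2a (-0.30) remained called, while Tctn1 and Ift172 did not (adjusted p = 0.064 and 0.068). Both members on chromosome 16, Arl13b and Ift57, were lower too and remained so (-0.49 and -0.37), where that chromosome's median was -0.068. On chromosome 8, with a median of -0.26, Bbs2 moved from -0.24 to 0.021 after subtraction, and Rpgrip1l from -0.030 to 0.23 (adjusted p = 0.051).

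After that subtraction 3 members were higher (Nphp4, Arl3 and Wdr35; 7.89%), beside 26.7% of all tested genes. On both arrays 23 members lay below their chromosome's median and 10 above it, where each held for 42.5% of all tested genes. The 10 genes still lower were Kif3a, Tctn2, Arl13b, Ift57, Ift81, Bbs10, Cc2d2a, Ttc8, Ift52 and Tmem67. The same 10 were lower under all 11 settings that test the ratio against 0. These settings share the same 2 arrays and are not separate checks. The deposited series table repeats the Agilent processed ratios, and the settings that change the signal filter leave the member ratios unchanged. The share of all tested genes lower under all 11 was not computed. In the test against a 1.2-fold change only Kif3a, Tctn2 and Arl13b of these 10 were lower. With the Agilent processed signals 13 members were lower and 1 higher (29.9% and 21.2% of all genes), without Ift74, Bbs2, Tctn1 and Ofd1, and with median centring 18 and 4 (30.0% and 30.4%). The 4 that were higher with median centring were Ift27, Ift46, Wdr35 and Arl3. Of these Ift27 turned in sign from its loess value, while Ift46, Wdr35 and Arl3 were above 0 on both arrays there without passing.

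**Figure D3:**
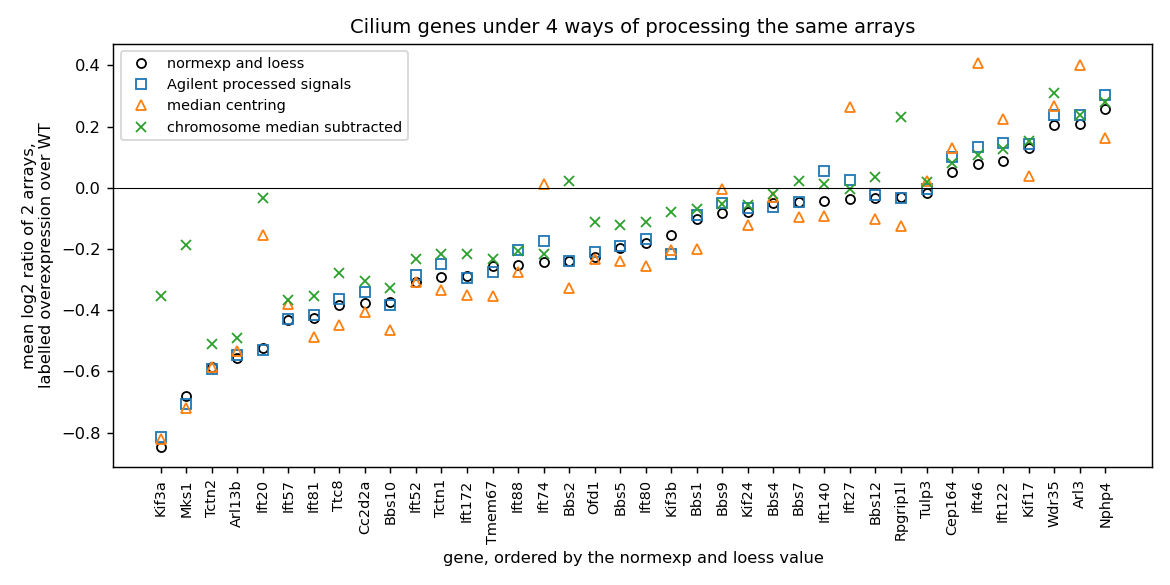
Mean log2 ratio of the 38 cilium genes, ordered from left to right, under 4 ways of processing the same arrays. Squares (Agilent processed signals) follow the circles (normexp and loess), triangles (median centring) move Ift27 and Ift46 up to 0.26 and 0.41, and crosses (chromosome median subtracted) move Ift20 to -0.033.

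The authors' deposited tables also give each log10 ratio a p-value that the scanner software estimated within 1 array. At p under 0.01 on both arrays in the same direction, 2 members were lower by those values, Kif3a and Mks1 (5.26%), and 0 higher, beside 12.7% and 7.92% of the tested genes. The deposited p-values were 2.0e-04 and 0.00015 for Kif3a and 0.0033 and 0.00026 for Mks1 in replicates 1 and 2.

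Further genes of the cilium, 131 in 12 lists, were read from the same fit. Of 121 measured, 42 were lower (34.7%) and 20 higher (16.5%), beside 34.5% and 22.2% of all tested genes, so the share lower was that of the background. The median was -0.10. With median centring 41 of the 121 were lower and 27 higher, where 30.0% of all tested genes were lower and 30.4% higher. Transition zone genes outside the members were lower in 8 of 14 cases (57.1%) and higher in 0, with a median of -0.30. With median centring 7 were lower and 2 higher, beside 30.0% and 30.4% of all tested genes. With the Agilent processed signals 6 were lower and 0 higher, beside 29.9% and 21.2%. Tmem107 had -0.83 ± 0.017, Tmem17 -0.78 ± 0.017, Iqcb1 -0.61 ± 0.018 and Ahi1 -0.36 ± 0.031. The first pair lie on chromosome 11, the others on chromosomes 16 and 10. In the list of other basal body and satellite genes 7 of 15 were lower and 2 higher. The satellite genes Cep131, on chromosome 11, and Pcm1, on chromosome 8, had -1.14 ± 0.11 and -0.90 ± 0.20. Odf2 and Fbf1 had -0.61 ± 0.22 and -0.55 ± 0.21, and Fbf1 lies on chromosome 11 too. The second probes of Pcm1 and Odf2 had -0.45 and -0.22.

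Other transport genes were read against the same shares of all tested genes, 34.5% lower and 22.2% higher. Of 8 other IFT-B genes, 1 was lower (Hspb11, also called IFT25, -0.69 ± 0.12) and 1 higher (Traf3ip1, also called IFT54, 0.38 ± 0.059). Of 3 other IFT-A genes, Ttc21b was lower (-0.48 ± 0.061) and Ift43 higher (0.38 ± 0.037). Dynein-2 and kinesin accessory genes were lower in 3 of 8 cases (37.5%) and higher in 0, with Dync2li1 at -0.59 ± 0.12, Tctex1d2 at -0.45 ± 0.15 and Wdr34 at -0.25 ± 0.026. Median centring turned Wdr34 to 0.35 with a call and took Tctex1d2 to -0.22 without one (adjusted p = 0.065). It gave 1 lower and 3 higher in this list, where 30.0% of all tested genes were lower and 30.4% higher. Of 7 other BBS genes 1 was lower, Wdpcp at -0.53 ± 0.12, and 0 higher. Wdpcp lies on chromosome 11, whose median was -0.48. In the inversin compartment, a segment beyond the transition zone, 2 of 4 were lower and 1 higher, with Nek8 at -0.28 ± 0.023 and Invs at 0.30 ± 0.15. Nek8 lost its call with the Agilent processed signals (adjusted p = 0.052) and Invs with median centring (adjusted p = 0.096). Nek8 lies on chromosome 11 as well, above that chromosome's median. Of 10 ciliary GTPase and lipid-trafficking genes 2 were lower (Unc119b, -0.35 ± 0.24; Rp2, -0.24 ± 0.049) and 2 higher (Rab23, 0.46 ± 0.14; Rab11a, 0.31 ± 0.15). Rab23 and Traf3ip1 lie on chromosome 1, whose median was 0.20.

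**Figure D4:**
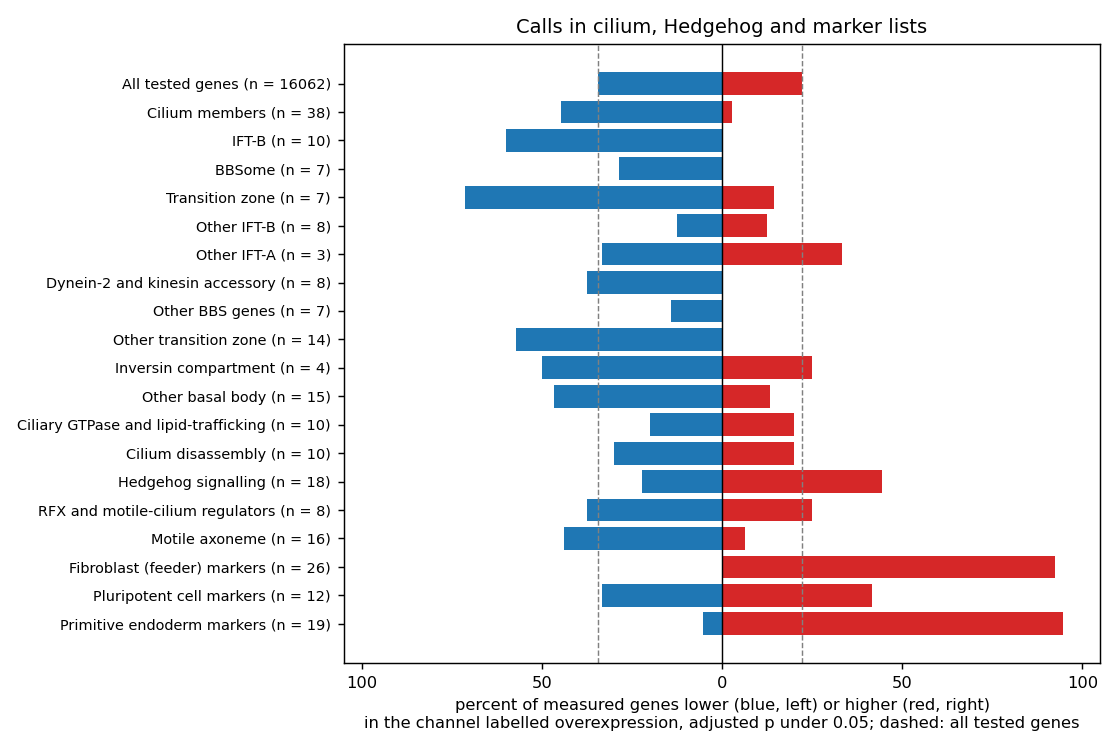
Percent of measured genes in each list that were lower (blue, left) or higher (red, right) in the OE-labelled channel at an adjusted p under 0.05, with dashed lines at the 34.5% and 22.2% of all tested genes. Sub-complexes with under 7 members are left out. The transition zone bars reach 71.4% and 57.1% lower, and the Hedgehog bar 44.4% higher. All bars are from the loess setting, and with median centring the Hedgehog share higher was near that of all tested genes.

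Genes linked to cilium disassembly were lower in 3 of 10 cases (30.0%) and higher in 2 (20.0%), near the 34.5% and 22.2% of all tested genes. With median centring 1 was lower and 4 higher, Hdac6 among the latter, beside 30.0% and 30.4% of all tested genes. Aurka, the gene of the kinase Aurora A, had -0.23 ± 0.18 and did not pass (limma adjusted p = 0.069). Nedd9, whose product activates Aurora A at the cilium, rose from 747 in WT to 1120 in replicate 1 and from 972 to 1920 in replicate 2, a ratio of 0.78 ± 0.29 (adjusted p = 0.00021). Pifo and the microtubule-depolymerising kinesin gene Kif2a fell (-0.84 ± 0.14 and -0.35 ± 0.016). The second probe of Pifo had -0.33, and Kif2a lost its call under median centring.

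Hedgehog signalling, which runs through the primary cilium in vertebrates, had 8 of 18 measured genes higher (44.4%) and 4 lower (22.2%), beside 22.2% and 34.5% of all tested genes. With median centring 6 of the 18 were higher and 4 lower, beside 30.4% and 30.0% of all tested genes. The share higher was then near that of all tested genes. The 8 include Smo, whose probes disagreed in sign, with 0.33 for the probe used and -0.32 for the other. With the Agilent processed signals 7 were higher, without Smo, and 4 lower, beside 21.2% and 29.9%. Gli1, both a target and an effector of the pathway, had 7290 in WT and 16000 in the OE-labelled channel in replicate 1 and 8050 and 16900 in replicate 2. Its ratio was 1.11 ± 0.044 (limma adjusted p = 7.4e-06). The transcription factor gene Gli2 had 1.15 ± 0.27, the ligand gene Ihh 0.83 ± 0.11 and the receptor and target gene Ptch1 0.36 ± 0.038 (adjusted p = 0.0058). Hhip, a target gene whose product binds the ligand, fell from 1130 to 487 and from 1160 to 424, a ratio of -1.33 ± 0.17. Its second probe had -0.70. Gli2 and Ihh lie on chromosome 1, whose median was 0.20.

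Of the regulators, Rfx1 had 0.015 ± 0.036 and did not pass (adjusted p = 0.89), Rfx3 and Rfx7 fell (-0.30 ± 0.023 and -0.38 ± 0.084), and Rfx2 rose (0.61 ± 0.28). Rfx4 was not tested, since its signal did not pass the filter. Foxj1, the master regulator of motile cilia, lies on chromosome 11 and had -0.42 ± 0.050 (adjusted p = 0.0026). Mcidas, a regulator of multiciliated cells, had 0.38 ± 0.074, without a call from the Agilent processed signals (0.16). Axoneme genes of motile cilia were lower in 7 of 16 cases (43.8%) and higher in 1 (6.25%), beside 34.5% and 22.2% of all tested genes. Dnaic1 had -0.79 ± 0.15, Dnaic2 -0.53 ± 0.076 and Ccdc113 -0.51 ± 0.088. Dnaic2 lies on chromosome 11 and Ccdc113 on chromosome 8, with medians of -0.48 and -0.26. The 7 include Spag16, whose Cy5 signal was not well above background on either array, so no ratio is given for it.

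Markers of other cells moved on the same arrays. Of all tested genes 22.2% were higher and 34.5% lower, or 30.4% and 30.0% with median centring. Fibroblast markers, the feeder type, were higher in 24 of 26 measured cases and lower in 0, with a median of 0.82 in replicate 1 and 1.30 in replicate 2. Their highest members were Col1a2 (1.75 ± 0.44), S100a4 (1.67 ± 0.21), Acta2 (1.52 ± 0.68) and Thy1 (1.43 ± 0.36). Primitive endoderm markers were higher in 18 of 19 cases and lower in 1, with a median of 2.89, among them Cubn (5.30 ± 0.032), Gata4 (4.60 ± 0.091) and Foxa2 (4.57 ± 0.055). Ttr was not well above background in WT on either array, so its ratio is not given. Of 12 pluripotent cell markers 5 were higher (41.7%) and 4 lower (33.3%), the share lower being near that of all tested genes. With median centring 8 were higher and 2 lower. Klf4 had 0.92 ± 0.024, Esrrb 0.77 ± 0.10, Tdgf1 -0.86 ± 0.0058 and Zfp42 -0.52 ± 0.035. Median centring took Tdgf1 to -0.15 without a call (adjusted p = 0.18) and gave Nanog, at -0.044 by loess, a call as higher. The part of these cells in the ratios of the cilium, Hedgehog and Nedd9 genes was not tested.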

How the data were processed

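The authors extracted spot values with Agilent Feature Extraction 11.5.1.1, per the file headers. The deposited files hold raw median intensity values of spots and local backgrounds, processed intensity values (background-subtracted and dye-normalized by linear and lowess factors), their log10 ratio and its p-value from the scanner software's error model. The deposited series table holds log2 ratios, which correlated at -1.00 with the processed ratios, with slopes of -1.00, and so run as WT over the OE-labelled channel. The medians of its columns were -0.0074 and 0.062, and whether further centring was applied is unknown.

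From the raw medians, background was corrected with normexp (offset 50) and each array loess-normalized in limma 3.58.1 (R 4.3.3), leaving controls and spots marked as outliers out of the curve. Outlier-marked spots (269 and 313) were then left out. Of 55681 probes, 26762 had 1 symbol through their accession in RefSeq's GRCm38.p6 table, 28919 none and 0 several. The brightest probe stood for a gene and was kept when well above background in the same channel on both arrays. The log2 ratio was tested against 0 with lmFit and eBayes (two-sided, prior degrees of freedom 8.71, typical standard error 0.090). The number of arrays limits the precision. From 68.0% to 68.8% of the probes were well above background in each channel.

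Printed intensities are those after loess, and no probe's level is set against another's. Members and lists were chosen with earlier results of these data known. Full values are given for members past the threshold or with probes that disagree, and of each other list up to 4 genes with the largest ratio past it, beside Hdac6, Aurka, Nedd9, Ptch1, Gli1, Foxj1 and the Rfx genes. Some genes that this rule names are not reported here.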

Additional observations from a re-analysis of the deposited data

How the results depend on the processing

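The count of lower members, 17 in the main setting, was within 1.5 times of it under 9 of 12 alternatives, from 13 to 18. Some of these alternatives leave the member ratios unchanged or repeat those of another. The count was 10 with chromosome medians subtracted. It was 5 with limma's test against a 1.2-fold change (Ift20, Kif3a, Arl13b, Mks1 and Tctn2) and 2 at 1.5-fold on both arrays. The count of higher members, 1 in the main setting, was 4 with median centring, 3 with chromosome medians subtracted, 2 with the mean over probes and 0 under each of the latter size rules. The median of -0.19 became -0.20 with median centring, -0.20 with the mean over probes, -0.18 with the Agilent processed signals, with the deposited series table and without background subtraction, and -0.075 with chromosome medians subtracted. Without replicate 1 it was -0.16 and without replicate 2 also -0.16. Counts of calls cannot be had from 1 array, so none are given for these. Ift27 (0.26) and Ift74 (0.011) changed sign with median centring, and Bbs2 (0.021) with chromosome medians subtracted. Over all genes, median centring gave 4877 higher and 4811 lower in place of 3559 and 5540. The causes were not tested. The main test is itself paired, since each ratio sets both channels of 1 array against each other.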
